A study of Mus musculus with 6 samples.

Results

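Adrb3, the beta-3 adrenergic receptor gene, and 9 genes of fat cells (Adipoq, Lep, Plin1, Fabp4, Cfd, Retn, Lipe, Pparg and Cidec) were measured in tongue tissue of 6 mice. The question was whether the lower Adrb3 signal of mice given doxycycline (DOX) was shared by other genes of fat cells. The 10 genes were selected by name, through probe accessions, from 21368 genes named on the array, and 13 of its 55681 probes read them. Adrb3 was selected because its signal was lower with DOX in these same arrays, and the other members were selected with results of these data known. Differences between the groups are therefore a description for all members; where an adjusted p or a threshold of the fit over all probes is quoted for a member, it is that fit's value and no independent test of the member.

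All 6 mice were of a C57Bl6 background and carried the same inducible Dek construct (iDek), which is meant to raise Dek, a chromatin protein, when DOX is given; the labels call it both ubiquitous and squamous cell-specific. There were 3 mice that received no treatment and 3 mice that received DOX, a tetracycline antibiotic, for 2 weeks. No mice without the construct were analysed here, so an effect of DOX itself and an effect of Dek induction cannot be told apart. The series title names a carcinogen, but no sample label gives such an exposure. The labels used here give no age, sex, body weight, diet or hour of sampling, and they name no promoter that drives the construct.

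White fat cells store triglyceride in a single large lipid droplet and release it as fatty acids when noradrenaline from sympathetic nerves raises cAMP. In rodents the beta-3 receptor is a main route of that signal in fat cells, and it couples through Gs and adenylyl cyclase to protein kinase A, which acts on perilipin 1 at the droplet surface and on hormone-sensitive lipase. PPARG, together with C/EBP factors, directs fat cell differentiation and the expression of most of the other members. Fat cells also secrete hormones and complement proteins, among them adiponectin (Adipoq), leptin (Lep), resistin (Retn) and adipsin (Cfd). The tongue holds fat cells between its muscle fibres and around its glands.

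Each array had 56.0% to 58.3% of its 55681 probes well above background, none had a saturated non-control spot, and their 75th percentiles of processed signal ran from 245.6 to 263.8. All 6 arrays shared 1 slide and 1 scan. Its row 1 held the arrays without DOX together with DOX replicate 1, while row 2 held the other DOX replicates. The series text counts 3 mice per group, but its protocol writes of the untreated animals in the singular; if these samples share an animal, p-values measure only the spread between samples. Dek, read by 1 probe, differed by a log2 of 0.17 ± 0.11 (SE, n = 3 and 3; limma, adjusted p = 0.456), with overlapping groups. The labels do not give which stretch of the Dek transcript the construct carries, so whether this probe reads it is not known. A rise of Dek was therefore not shown on these arrays. Levels below are log2 processed signals minus the 75th percentile of the array, and a difference is DOX minus no DOX on that scale. Levels of different probes are not compared with each other. In tissue RNA, fewer cells of a type and less RNA per cell cannot be told apart.

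Of the 13 probes, 11 were well above background on all 6 arrays. The fat cell markers Adipoq, Cfd, Fabp4, Plin1 and Cidec were among them, so transcripts of fat cells were present in every sample. Leptin was the exception: its probe (A_52_P374882), printed in 10 spots, stayed below that mark on all 6 arrays, at -6.32, -6.08 and -6.64 without DOX and -6.78, -6.36 and -6.35 with DOX. It was not tested, and no fold is given for it. The remaining 9 members passed the filter, which asked for all 3 arrays of at least 1 group to be well above background.

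The proximal promoters of 3 members are printed below: Lep, whose transcript was not measurable here, Plin1, whose groups overlapped, and Retn, which had the largest difference among the members other than Adrb3. They are the 250 bases before the transcription start, 5′ to 3′ on the coding strand, from RefSeq (GRCm38.p6), at chr6:29059971-29060220 (plus strand) for Lep, chr7:79732777-79733026 (minus strand) for Plin1 and chr8:3655520-3655769 (plus strand) for Retn. Capitals mark matches to the C/EBP core TTGCNNAA, searched on both strands.

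Lep: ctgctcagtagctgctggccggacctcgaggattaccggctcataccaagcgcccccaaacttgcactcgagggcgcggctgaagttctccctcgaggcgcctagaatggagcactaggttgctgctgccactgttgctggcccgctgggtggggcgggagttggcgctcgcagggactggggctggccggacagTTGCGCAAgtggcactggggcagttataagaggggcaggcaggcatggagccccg

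Plin1: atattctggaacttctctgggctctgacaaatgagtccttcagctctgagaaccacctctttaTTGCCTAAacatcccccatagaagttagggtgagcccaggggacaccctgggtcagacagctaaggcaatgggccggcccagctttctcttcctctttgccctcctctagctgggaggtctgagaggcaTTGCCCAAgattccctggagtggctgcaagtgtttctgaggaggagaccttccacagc

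Retn: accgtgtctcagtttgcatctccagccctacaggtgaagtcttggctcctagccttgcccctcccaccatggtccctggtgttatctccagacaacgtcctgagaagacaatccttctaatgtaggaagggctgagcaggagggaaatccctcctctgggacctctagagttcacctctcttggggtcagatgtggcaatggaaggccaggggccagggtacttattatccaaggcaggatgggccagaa

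The Lep match begins at position -55 relative to the start site, and the Plin1 matches begin at -187 and -58. Promoter sequences were held for 8 of the 10 members (12 sequences, since Cidec, Pparg and Lipe have several start sites); Adrb3 and Fabp4 are named only. Searches covered 4 motifs on both strands of these 250 bases. Counted per sequence, a C/EBP core was found in 4 of the 12 (1 each of Lep, Cidec, Pparg and Plin1), and 9.56% of all 32851 promoter sequences hold it. The nuclear receptor element AGGTCA was found in 2 of the 12, both of Pparg, and 14.0% of all hold it. The E-box CACGTG was found in 1, of Lipe, and 6.02% of all hold it. The D-box TTATGTAA, bound by Dbp and Nfil3, was found in none, against 0.819% of all. A match of letters is a description of the sequence and does not show that a factor binds there.

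The brighter Adrb3 probe (A_55_P1992849) had levels of -0.41, -0.17 and -0.32 without DOX and -2.13, -1.71 and -1.48 with DOX. Every DOX array lay below every array without DOX, and the gap between the groups was wider than the range inside either of them. The arrays without DOX averaged -0.30 ± 0.12 (SD, n = 3), and those with DOX averaged -1.78 ± 0.33 (SD, n = 3). The difference was -1.48 ± 0.18 (SE), with a 95% interval of -1.91 to -1.04, so that Adrb3 was 2.78-fold lower with DOX. Of 26246 genes and unnamed probes tested, 106 had a difference at or below that of Adrb3, 67 of them with a gene symbol.

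The second Adrb3 probe (A_55_P2105685), of the same transcript accession, was far dimmer. It read -4.15, -3.73 and -3.47 without DOX and -4.78, -5.35 and -4.30 with DOX. The groups did not overlap here either, but none of the 3 arrays with DOX was well above background for this probe. With the DOX signals held to a floor, the group means of this probe lay 1.75-fold apart, lower with DOX. For each DOX array the floor was the dimmest signal that counted as well above background there, used where the probe's signal was lower. That fold takes no account of the spread between arrays and is no lower limit for the Adrb3 difference. In the fit, without the floor, the probe was at -1.03 ± 0.30 (SE, limma, adjusted p = 0.157) and did not pass the threshold. With normexp background correction, which pulls dim signals together, the differences were -0.995 for the brighter probe and -0.20 for the dimmer.

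**Figure D1:**
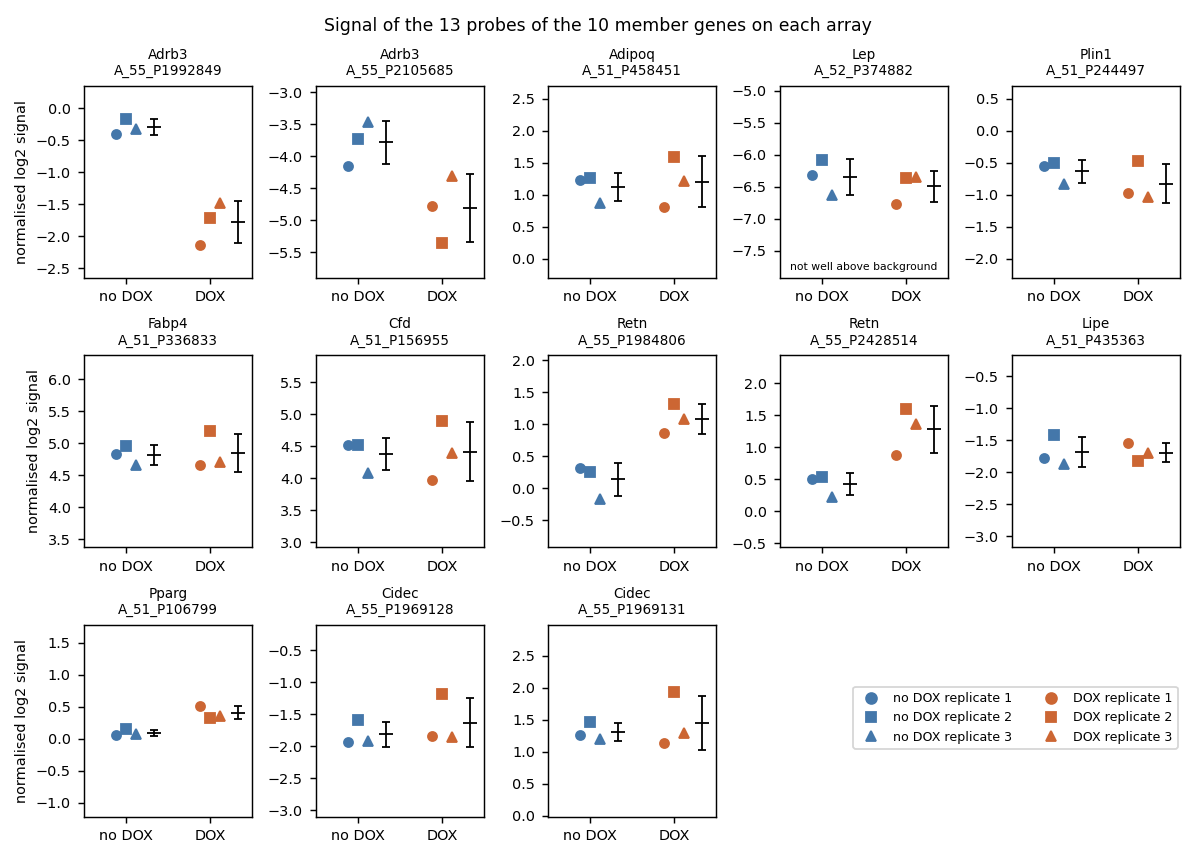
Normalised log2 signal (y axis; each panel spans 3 log2 units) of the 13 probes of the 10 member genes on the 3 arrays without DOX and the 3 arrays with DOX (x axis); symbols are replicates, and the black mark and bar are the mean and SD. Both Adrb3 probes have all DOX arrays below all arrays without DOX, both Retn probes have them above, and the Adipoq, Plin1, Fabp4, Cfd, Lipe and Cidec panels show overlapping groups.

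The fat cell hormones and complement factor other than resistin had overlapping groups. Adipoq (A_51_P458451) read 1.22, 1.26 and 0.87 without DOX and 0.80, 1.59 and 1.21 with DOX. Its lowest and its highest value were both from mice given DOX, and the difference was 0.09 ± 0.22 (SE, 95% interval -0.44 to 0.62). Cfd (A_51_P156955), the gene of adipsin, a serine protease of the alternative complement pathway, read 4.52, 4.53 and 4.09 without DOX and 3.97, 4.89 and 4.40 with DOX. Again the DOX arrays held both extremes, and the difference was 0.04 ± 0.25 (SE, 95% interval -0.56 to 0.64).

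Resistin differed from these, in the direction opposite to Adrb3. The brighter Retn probe (A_55_P2428514) read 0.51, 0.54 and 0.23 without DOX and 0.88, 1.60 and 1.37 with DOX. The other Retn probe (A_55_P1984806) read 0.33, 0.26 and -0.16 without DOX and 0.86, 1.32 and 1.08 with DOX. On both probes all DOX arrays were above all arrays without DOX, and DOX replicate 1 was nearest to them. The differences were 0.86 ± 0.20 (SE, 95% interval 0.37 to 1.35), or 1.81-fold higher, and 0.95 ± 0.18 (SE, 95% interval 0.51 to 1.38). Neither probe passed the threshold of the fit over all probes. With the slide row as a term, which sets DOX replicate 1 against the arrays without DOX, the brighter probe was at 0.45 ± 0.20 (SE).

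The droplet and lipase genes, which act downstream of the receptor, had groups that overlapped. Plin1 (A_51_P244497), the gene of the droplet coat protein perilipin 1, read -0.56, -0.51 and -0.84 without DOX and -0.98, -0.48 and -1.03 with DOX, a difference of -0.20 ± 0.18 (SE, 95% interval -0.64 to 0.24). Lipe (A_51_P435363), the gene of hormone-sensitive lipase, read -1.77, -1.42 and -1.87 without DOX and -1.54, -1.83 and -1.71 with DOX. All 3 of its DOX values lay inside the range of the arrays without DOX, and the difference was 0.00 ± 0.15 (SE, 95% interval -0.37 to 0.36). Cidec, whose protein promotes fusion of lipid droplets, had a brighter probe (A_55_P1969131) at 1.26, 1.47 and 1.20 without DOX and 1.14, 1.93 and 1.30 with DOX. That was a difference of 0.15 ± 0.22 (SE, 95% interval -0.38 to 0.67), and its dimmer probe (A_55_P1969128) gave 0.18 ± 0.21 (SE). DOX replicate 2 alone stood above the other arrays on both Cidec probes.

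Fabp4 (A_51_P336833), a fatty acid carrier of fat cells that capillary endothelium and macrophages also express, read 4.83, 4.96 and 4.66 without DOX and 4.66, 5.19 and 4.70 with DOX. Its difference was 0.04 ± 0.17 (SE, 95% interval -0.38 to 0.46). Pparg (A_51_P106799, 10 spots), the gene of the nuclear receptor that directs fat cell differentiation, read 0.05, 0.15 and 0.08 without DOX and 0.52, 0.33 and 0.36 with DOX. All DOX arrays were above all arrays without DOX by a small margin. The difference was 0.31 ± 0.10 (SE, 95% interval 0.06 to 0.56), or 1.24-fold, and it did not pass the threshold of the fit.

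Of the 9 members in the fit over all probes, 1 was past an adjusted p of 0.05, Adrb3, which was selected for that difference (limma with Benjamini-Hochberg adjustment, adjusted p = 0.0406). Among all 26246 genes and unnamed probes tested, 0.404% were past it in either direction and 0.126% were lower. Groups did not overlap for 3 of the 9 members, Adrb3 lower and Retn and Pparg higher, where 25.3% of everything tested did not overlap in either direction, 12.6% lower and 12.7% higher. The 6 members with overlapping groups had differences of at most 0.20 in size. Adrb3 was no longer past the threshold in any of the 6 fits that left out 1 array, with differences of -1.62 to -1.30 and adjusted p from 0.0530 (without DOX replicate 3) to 0.159 (without no DOX replicate 2).

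Over the 8 members other than Adrb3 that were tested, the median difference was 0.06, against -0.01 over all genes and unnamed probes tested. Leaving out DOX replicate 2 gave a median of -0.10, leaving out no DOX replicate 3 gave -0.04 and leaving out DOX replicate 1 gave 0.26. It was -0.16 with the slide row as a term and -0.06 with array weights. Adrb3 lay 1.54 below that median on the log2 scale (a difference of -1.54), and between -1.72 and -1.41 when each array was left out in turn.

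Within each group the fat cell mean and Adrb3 put the arrays in different orders, though they shared an extreme array. Orders of 3 arrays often share an extreme, so this is a description only. After each probe was centred on its mean over the 6 arrays, the mean of the 8 other members was -0.05, 0.06 and -0.25 without DOX and -0.13, 0.35 and 0.02 with DOX. Adrb3 was at 0.63, 0.87 and 0.72 without DOX and at -1.09, -0.68 and -0.44 with DOX. Without DOX both were highest in replicate 2, but the fat cell mean was lowest in replicate 3 and Adrb3 in replicate 1. With DOX both were lowest in replicate 1. Within the DOX group the fat cell mean was highest in replicate 2, which held the highest value of 6 of the 8 members, whereas Adrb3 was highest in replicate 3. Among the DOX arrays, replicate 2 also had the highest summed linear signal of skeletal muscle (3839), stromal (402) and macrophage genes (24.5). For keratinocyte genes it had the lowest (1381). A high DOX replicate 2 was therefore not particular to fat cell genes.

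The range of the fat cell mean over all 6 arrays was 0.60, and that of Adrb3 was 1.96. A mean of 8 genes can vary less than a single gene, and Adrb3 was selected for its difference. Neither these ranges nor the separation given next is therefore a test. Adrb3 minus the fat cell mean averaged 0.82 ± 0.14 (SD, n = 3) on the arrays without DOX and -0.82 ± 0.31 (SD, n = 3) on those with DOX, a difference of -1.64 with no overlap. With the fat cell mean of each array as a covariate in the fit, the Adrb3 difference was -1.56 ± 0.20 (SE), against -1.48 without it, and no longer passed the threshold (limma, adjusted p = 0.0721). That fat cell mean differed by only 0.16 between the groups, and it includes Retn and Pparg, which were higher with DOX. Because Adrb3 was also selected for its difference, this fit is no test of whether Adrb3 follows fat cells.

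**Figure D2:**
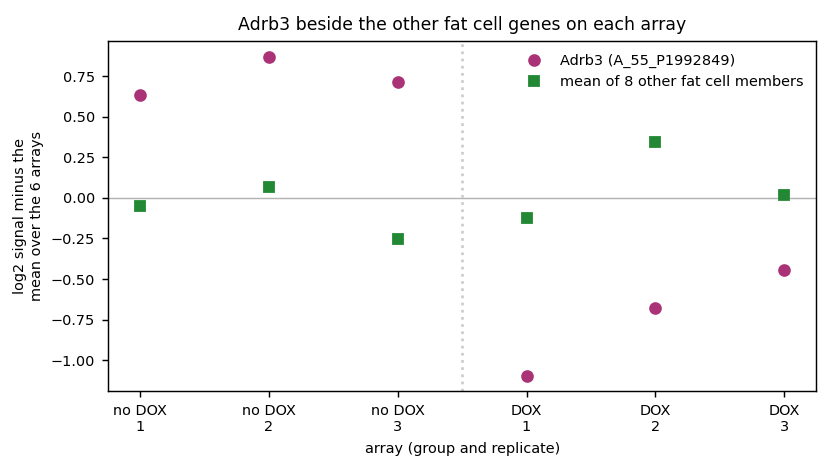
Log2 signal minus the mean over the 6 arrays (y axis) for Adrb3 and for the mean of the 8 other tested fat cell members on each array (x axis, group and replicate). Adrb3 lies between 0.63 and 0.87 without DOX and between -1.09 and -0.44 with DOX, whereas the fat cell mean stays between -0.25 and 0.35 and overlaps between the groups. A mean of 8 genes can vary less than a single gene.

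Further genes of fat cells were counted from a list of 25, of which 22 were tested. Here and in the lists below, rose or fell means past an adjusted p of 0.05 (limma), as 0.404% of everything tested was. A gene that did not pass is not shown to be unchanged. None of the 22 rose or fell (limma; 5 had an unadjusted p under 0.05), 14 had a higher and 8 a lower mean, and the median difference was 0.08. The smallest p belonged to Thrsp, a lipogenic gene, at 1.26 ± 0.28 (SE, adjusted p = 0.103). Next were Acvr1c, an activin receptor gene of fat cells, at -2.0 ± 0.46 (adjusted p = 0.109), Acsl1, an acyl-CoA synthetase gene, at -0.60 ± 0.16, and Mrap, the gene of the melanocortin 2 receptor accessory protein, at 0.90 ± 0.29.

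Acvr1c read -2.14, -2.22 and -2.81 without DOX and -5.44, -4.01 and -3.71 with DOX, without overlap, but only 2 of the 3 DOX arrays were well above background. The other tested Acvr1c probe, which was dimmer, gave -2.61. The size for the brighter probe turned on the background correction: with normexp it was -0.58, beside 1.14 for Thrsp, -0.63 for Acsl1 and 0.59 for Mrap. Hcar1, Lgals12 and Trarg1 did not pass the filter.

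Brown and beige fat genes gave no called member either. Of 17 genes 13 were tested, 0 rose or fell (limma; 2 had an unadjusted p under 0.05), 7 had a higher and 6 a lower mean, and the median was 0.03. Dio2, a deiodinase gene that activates thyroid hormone, was at 0.64 ± 0.20 (SE, adjusted p = 0.170), the coactivator gene Ppargc1a at 0.75 ± 0.27 (SE, adjusted p = 0.214), Ppara at 0.29 ± 0.13 and Zic1 at 0.19 ± 0.16. Elovl3, Tmem26, Fgf21 and Bmp8b were not well above background on any array.

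No other adrenergic receptor gene passed the test. Of 8 receptor genes 6 were tested, 0 rose or fell (limma; 1 had an unadjusted p under 0.05), 2 had a higher and 4 a lower mean, and the median was -0.08. Adrb1, the beta-1 receptor gene, read -1.02, -1.29 and -2.02 without DOX and -1.58, -2.20 and -1.34 with DOX, a difference of -0.27 ± 0.32 (SE, 95% interval -1.03 to 0.50). The groups overlapped, and the lower bound of the interval lay beside the upper bound for Adrb3 (-1.91 to -1.04), which was selected for its difference.

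Among the alpha receptors, Adra2c was at 0.78 ± 0.30 (SE, adjusted p = 0.242) without overlap, and at 0.23 with normexp. Adra2a was at -0.77 ± 0.37 (SE, adjusted p = 0.316), Adra1b at -0.10 ± 0.11 and Adra2b at -0.07 ± 0.09. Adra1a was well above background on none of the arrays, and Adra1d on 1 DOX array only.

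**Figure D3:**
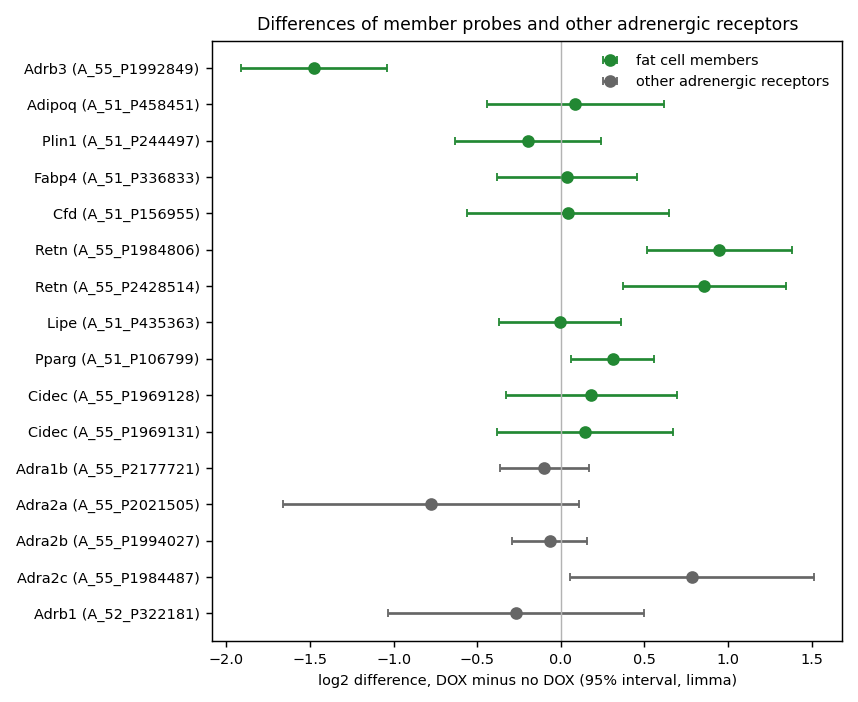
Log2 difference, DOX minus no DOX (x axis), with its 95% interval from limma for the 11 member probes well above background on all arrays and for 5 other adrenergic receptor genes (y axis, gene and probe). The Adrb3 interval lies below 0, those of Retn and Pparg above 0, and those of the other members span 0; the Adrb3 probe at background with DOX is not drawn, and Adra2c is the only other receptor gene drawn whose interval excludes 0.

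Of 22 genes that carry or end the receptor's signal (G proteins, adenylyl cyclases, protein kinase A subunits, phosphodiesterases, arrestins and cAMP targets), all 22 were tested and 0 rose or fell (limma; 5 had an unadjusted p under 0.05), 10 with a higher and 12 with a lower mean and a median of -0.05. Prkar2b, a regulatory subunit of protein kinase A that fat cells express strongly, was at -0.54 ± 0.16 (SE, adjusted p = 0.163), and its 3 probes lay between -0.74 and -0.51. The cAMP-responsive gene Nr4a1 was at -0.89 ± 0.30, Crem at 0.48 ± 0.17 and Rgs2 at 0.65 ± 0.24; these are cAMP-responsive genes too, so the list did not lie on 1 side.

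In the droplet and lipolysis list 0 of 12 tested genes rose or fell (limma; 1 had an unadjusted p under 0.05), 9 had a higher mean, and the median was 0.18. That gene was G0s2, whose protein inhibits the lipase ATGL. It read 1.29, 0.63 and 0.55 without DOX and 3.17, 3.32 and 2.11 with DOX, without overlap, a difference of 2.04 ± 0.36 (SE, adjusted p = 0.0777). With array weights G0s2 passed the threshold. Fitm2, Dgat1 and Abhd5 lay between 0.22 and 0.35.

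Among 13 fat cell transcription factor genes other than Pparg, 0 rose or fell (limma; 5 had an unadjusted p under 0.05), 9 had a lower mean, and the median was -0.21. Cebpd, which acts early in fat cell differentiation and also responds to inflammation, read 2.95, 3.08 and 3.17 without DOX and 3.88, 3.71 and 3.63 with DOX. Its difference was 0.68 ± 0.12 (SE, adjusted p = 0.0777), and it passed the threshold with normexp, with array weights and with the trend and robust settings. Stat5a was at -0.52 ± 0.13, the coactivator gene Ppargc1b at -0.58 ± 0.18 and Rxra, the partner of PPARG, at -0.39 ± 0.14, or -0.09 by its other probe.

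Of 16 genes of adipokines and their receptors, 14 were tested and 0 rose or fell (limma; 3 had an unadjusted p under 0.05), 10 with a higher and 4 with a lower mean and a median of 0.15. Angptl4, a secreted inhibitor of lipoprotein lipase and a target of PPAR receptors, was nearest to the threshold, at -1.73 ± 0.24 (SE, adjusted p = 0.0531). It read 0.71, 1.65 and 1.22 without DOX and -0.47, -0.41 and -0.72 with DOX, without overlap, and it passed with the same 3 settings as Cebpd. Apln, the gene of apelin, was at -1.0 ± 0.20, Retnla, a resistin-like gene of macrophages and fat, at -0.87 ± 0.29, and Nampt at 0.24 ± 0.14. Retnla and Retn thus had differences of opposite sign, and neither passed.

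Of 12 genes of fat cell precursors and stroma, 0 rose or fell (limma; 2 had an unadjusted p under 0.05), 11 had a lower mean, and the median was -0.18. Dlk1, a preadipocyte marker, was at -0.65 ± 0.13 (SE, adjusted p = 0.0893), F3 at -0.98 ± 0.38, Col1a1 at -0.44 ± 0.22 and Icam1 at -0.36 ± 0.19. Over these 8 lists together, 125 genes were listed, 114 were tested, 0 passed the threshold (limma), 24 (21.1%) had an unadjusted p under 0.05, and 29 (25.4%) had groups that did not overlap. Over everything tested in the same fit, 0.404% passed the threshold, 18.6% had an unadjusted p under 0.05 and 25.3% did not overlap.

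**Figure D4:**
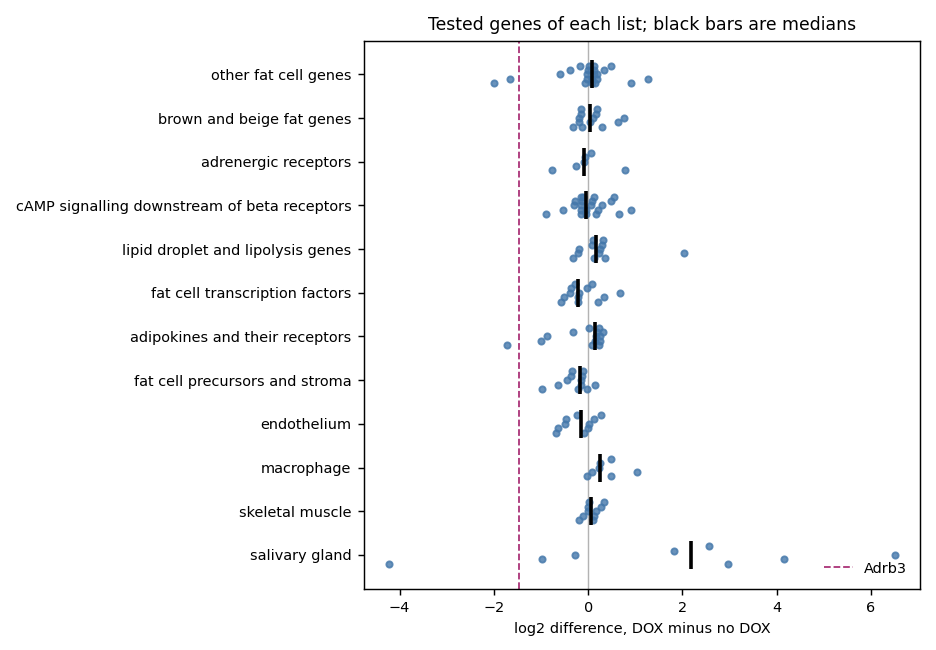
Log2 difference, DOX minus no DOX (x axis), of the tested genes of 12 lists (y axis; points are genes, black bars are medians), with the Adrb3 difference of -1.48 as a dashed line. Medians of the fat cell, receptor and signalling lists lie between -0.21 and 0.18, and the salivary gland list is the widest. In all, 3 other fat cell or adipokine genes (Acvr1c, Pck1 and Angptl4) lie at or below the Adrb3 line. Acvr1c has 2 of 3 DOX arrays well above background, and Pck1 (-1.66 ± 0.58, SE) has overlapping groups.

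Markers of other cell types in tongue were read beside these values, since Fabp4 and Pparg are also expressed outside fat cells. Of 10 endothelial genes 0 passed, 6 had a lower and 4 a higher mean, and the median was -0.16. The summed level was 53.7 to 69.8 without DOX and 42.4 to 54.6 with DOX. Bright probes weigh most in such a sum, and that of Egfl7 was the brightest of these. Egfl7 was at -0.67 ± 0.18, Esam at -0.63 ± 0.22, Cdh5 at -0.48 ± 0.22 and Cldn5 at -0.48 ± 0.27, whereas Emcn was at 0.28 ± 0.24 and Pecam1 at 0.12 ± 0.17. The part of these genes in the Adrb3 difference was not tested. Of 7 tested macrophage genes 0 passed, 6 had a higher and 1 a lower mean, and the summed level was 17.1 to 18.4 without DOX and 17.9 to 24.5 with DOX. Lyz2 was at 1.03 ± 0.17, C1qa at 0.48 ± 0.19, C1qb at 0.49 ± 0.22 and Cd68 at 0.26 ± 0.17, while Cd163 was on no array well above background. Their part in the Retn and Pparg differences was not tested.

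Salivary gland genes lay on both sides. None of the 8 passed (limma; 5 had an unadjusted p under 0.05, as had 18.6% of everything tested). Of the 8, 5 had a higher mean without overlap and 3 a lower mean with overlap. Over everything tested, 25.3% did not overlap in either direction. The summed level was 1425 to 1562 without DOX and 1693 to 1974 with DOX. Some of these genes were uneven without DOX, such as Bpifa2 (2.16, -2.50 and 4.43) and Klk1 (6.53, -1.96 and 1.74). Bhlha15 was at 1.82 ± 0.28, Lpo at 2.55 ± 0.46, Car6 at 4.16 ± 0.96 and Bpifa2 at 6.51 ± 1.64, whereas Klk1 was at -4.22 ± 1.92, Aqp5 at -0.98 ± 0.43 and Muc5b at -0.28 ± 0.17. The part of these genes in any fat cell value was not tested. Of the skeletal muscle genes 0 of 10 passed (limma; 0 had an unadjusted p under 0.05), with a median of 0.06, the groups overlapped for all 10, and Myh1 (0.33 ± 0.21), Atp2a1 (0.28 ± 0.23), Tnni2 (-0.12 ± 0.15) and Acta1 (0.12 ± 0.18) had the smallest p. Of the sympathetic nerve genes, which mark the source of noradrenaline, 4 of 5 were tested and 0 passed, with Th at 0.17 ± 0.17, Slc6a2 at 0.18 ± 0.23, Slc18a2 at 0.14 ± 0.23 and Dbh at -0.15 ± 1.21.

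The remaining lists also had 0 genes past the threshold. The medians were 0.22 over 6 smooth muscle genes, led by Smtn (-0.37 ± 0.13) and Acta2 (0.54 ± 0.23), and -0.13 over 6 Schwann cell genes, led by Mbp (-0.47 ± 0.15, with another probe at 0.24) and Sox10 (0.79 ± 0.34). Tongue keratinocyte genes (6 tested) centred on -0.08, led by Krt15 (-0.46 ± 0.19) and Trp63 (-0.15 ± 0.11).

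Genes were also ranked by the likeness of their pattern to that of Adrb3, as Pearson's r over the 6 arrays among 14435 named genes. The 8 highest were Ulk1 (r = 0.999), Trp53i11 (0.996), N4bp2l1 (0.995), Gpat2 (0.994), Ubald2 (0.994), Pwwp2a (0.994), Eef2 (0.993) and Sectm1b (0.993). None of them is a member or in the fat cell lists. Their own differences ran from -1.48 ± 0.22 (SE) for Sectm1b to -0.29 ± 0.10 (SE) for Eef2, and N4bp2l1 (-1.11 ± 0.14) and Gpat2 (-1.16 ± 0.14) passed the threshold (limma, adjusted p = 0.0420 and 0.0406). Because Adrb3 separates the groups, much of such an r comes from the 3 against 3 arrangement, and with so many genes ranked over 6 arrays values this high are a description only.

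The genes most like the fat cell mean after group means were subtracted included Dpf3, Fahd2a, Hrk, Tmem60, Ivd, Arhgap10 and Mrpl44, with r from 0.994 to 0.999 over 14428 genes. Ivd, the gene of an enzyme of leucine breakdown, had a difference of 0.04 ± 0.17 (SE). Group means were kept in the ranking for Adrb3 and subtracted in this one, so the genes of the rankings are not compared.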

How the data were processed

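Tongue RNA of 6 mice was labelled with Cy3 and hybridised to single-colour Agilent mouse arrays, per the labels. Per the file headers, the deposited scans give each spot's linear intensity after background subtraction (Feature Extraction 11.5.1.1, Agilent). Flags of 0 or 1 mark spots well above background, saturated or outlying. The deposited value table is the same signal times 1 factor per array (3.70 to 3.99); its column medians were 90.01 to 102.5, and no source used here explains the factors.

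Outlier spots (146 to 195 per array) were left out, spots of a probe were averaged on the log2 scale, and the 75th percentile of an array's probes was subtracted from its values. A probe with several spots counted as well above background where at least 0.5 of its spots were. Accessions named 28331 of 55681 probes through a RefSeq gene table (GRCm38.p6). Coordinates are printed for RefSeq promoters only, since the array's own annotation uses a different build. A probe entered the fit if all 3 arrays of either group were well above background (30921 probes); these were fitted with limma 3.58.1 in R 4.3.3 (lmFit, eBayes), with Benjamini-Hochberg adjustment over all of them and a threshold of 0.05; the brightest probe stood for a gene. ± is an SE for differences and an SD for levels. A summed level is the sum over a list's genes of linear signals relative to the 75th percentile, so bright probes weigh most in it. The script was tested on simulated data.

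The members and the 17 gene lists were chosen with earlier results of these data known. Genes named are all members, the 8 other adrenergic receptors, up to 4 genes per list with the smallest p, and the 8 most like Adrb3 or the fat cell mean; 2 genes that this rule names are not reported here. Pck1, Emcn, Pecam1, Klk1, Aqp5, Muc5b, Hcar1, Lgals12, Trarg1 and genes below background were named after their values were seen. Normexp was run on the median signal with an offset of 50 in place of the mean signal planned, which was not used here. Alternatives covered background, normalization, value table, filter, variance model, array weights, replicate block, slide row, probe rule and each array left out.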

Additional observations from a re-analysis of the deposited data

How the results depend on the processing

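The Adrb3 difference kept its sign under all 18 alternatives (-1.83 to -1.0) and was past the threshold in 7 of them. It was no longer past it at -1.48 with no filter on dim probes, -1.83 with the slide row as a term, -1.25 with the mean of its probes and -1.56 with the fat cell mean as covariate, or in the 6 fits without 1 array (-1.62 to -1.30). Replicate numbers gave no sign of pairing the arrays. Deviations of same-numbered arrays correlated at -0.11, -0.01 and 0.01, and those of other pairs at -0.14 to 0.15. With 3 arrays per group these values cannot settle whether the arrays were paired. With the replicate block Adrb3 stayed at -1.48 and was not past the threshold, and 0 genes were called (limma; 4731 at an unadjusted p under 0.05) in place of 106.

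The count of 106 was 246 with normexp, 1 with no filter, 192 with trend and robust settings, 484 with array weights, 32 with the slide row and 3 to 51 without 1 array. Of the 8 fat cell, adrenergic and stromal lists, 0 genes were called in the chosen fit, 2 with normexp (Angptl4 and Cebpd), 2 with trend and robust settings and 3 with array weights. The median of the fat cell members was -0.16 with the slide row, -0.06 with array weights and -0.10 to 0.26 without 1 array. Adrb3 minus that median was -1.06 with normexp and -1.72 to -1.41 without 1 array. The cause of these changes was not tested. Lep and the dimmer Adrb3 probe were limited by background.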
